A study of Drosophila melanogaster with 249 samples.

Results

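A group of 51 genes of chromosome arm 3L had transcript levels below 50% of the reference in heads of Drosophila melanogaster that carried 1 copy of the gene in place of 2. Each of 11 DrosDel deficiencies of 3L, Df(3L)ED4287, ED210, ED211, ED4421, ED4457, ED4475, ED4543, ED217, ED225, ED4978 and ED230, removes a different stretch, and these stretches hold 826 of the 17142 genes in the table. The 51 members were chosen by their measured values. The mean of the 3 heterozygous deficiency (Df/+) libraries of the line that deletes a gene was divided by the median of all other libraries of the group, and a member had a log2 ratio under -1.1, which is 46.7% of the reference, in 2 or more of the groups XX, tra2 XX and XY, where that reference was over 20 normalized reads. Of 379 deleted genes over that level in 2 or more groups, 51 met the rule, or 13.5%, and all 51 were protein-coding. Since the ratios chose the members, they are a description and carry no test.

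Each library was made from a pool of 10 adult heads at an age of 5 d. There were 97 XX, 96 tra2 XX and 39 XY libraries, of which 33 in each group came from the 3L lines, 3 for each line. A further 3 libraries came from w1118 tra2 XY heads, of XY males with tra2 mutations, and were not used for the ratios. These libraries shared the fit of the comparisons among w1118 XX, w1118 XY and w1118 tra2 XX heads, and so bore on its estimate of spread. The XX flies with a 3L deficiency were w1118/w1118;Df/+ females, and the XY flies were their w1118/Y;Df/+ brothers from the same cross. The tra2 XX flies with a 3L deficiency carried the tra2B allele over Df(2R)trix together with the 3L deficiency in a w1118/w1118 background, chromosomal females that develop as somatic males, and came from further crosses. The other tra2 XX flies carried Df(2R)trix as well. Flies called without a deficiency are those without a deficiency of 3L or X. The reference libraries of a gene were those of the remaining 3L lines, of X chromosome deficiencies in XX and tra2 XX, and of flies without a deficiency (w1118 in every group, w1118/w+ in XX and tra2 XX, and OreR in XX and XY), 94 libraries in XX, 93 for tra2 XX and 36 for XY. Each gene was deleted by 1 line, so the deletion and the rest of that line's genome cannot be told apart. Pools of whole heads were measured, so fewer cells of a type and less RNA per cell cannot be told apart.

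A diploid cell that loses 1 copy of a gene loses a template. The transcript level that follows can stay near that of both copies, where expression of the remaining copy is raised, can drop with the dose, or can drop further than the dose. Drosophila autosomal genes are known for partial compensation of such losses. The 51 members are of many kinds. They include receptors (AstC-R1 and CrzR for the neuropeptides allatostatin C and corazonin, GluRIB for glutamate, Toll-6, PGRP-LA and PGRP-LF of the peptidoglycan recognition family), synaptic proteins (nwk, an adaptor that restrains synaptic growth, and Spn, the fly spinophilin), proteins that act on RNA (AGO2 of the small interfering RNA pathway, yps, Gem3, GlyRS, the glycyl-tRNA synthetase, and mRpL12 of the mitochondrial ribosome), and enzymes and chaperones (Pbgs of heme synthesis, P5CDh1 of proline breakdown, Atox1, a copper chaperone, and Hsp23, a small heat shock protein), and 26 of the 51 have only a CG number as their symbol.

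A library had 667146 to 18679735 reads on genes, with a median of 7611689 over all libraries. The Df/+ libraries of fewest reads were Df(3L)ED4475/+ tra2 XX replicate 1 with 667146 and Df(3L)ED4475/+ XY replicate 2 with 1381962, and the 8 members of that line rest partly on them. Without these libraries there were 55 members, 47 of them shared, an alternative added after seeing the data. The Df(3L)ED4457/+ tra2 XX libraries, behind 5 members, stood apart, with 962 genes higher and 1075 lower than in the other tra2 XX libraries of 9556 tested in edgeR, and without them there were 49 members, a further alternative added after seeing the data. Neuron, photoreceptor, glia and muscle markers were found in every group. The head fat body markers were Yp1, Yp2, Yp3, Fbp1, Lsp2 and apolpp, and their sum had a median of 581937 normalized reads in XX, 49129.7 in tra2 XX and 31745 for XY. The Yp genes encode yolk proteins, which the paper found lowered to male levels in tra2 XX. The sum therefore cannot tell yolk protein expression from the amount of fat body, between groups or between lines. Df(3L)ED4421/+, the line of most members, had the highest mean of that sum in XX, 1384939, with 1204139 in the next line. In XY it also had the highest mean, 103022, with 45475 in the next line. In tra2 XX its mean of 76228 was below the 76824 of Df(3L)ED217/+. The part of these markers in the ratios was not tested.

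The members came from 9 of the 11 lines. Df(3L)ED4421 held 12 among its 50 genes over 20 normalized reads, or 24.0%, and Df(3L)ED4475 held 8 of 72. The highest share was in Df(3L)ED225, with 2 of 6, or 33.3%. Df(3L)ED211 with 7 such genes and Df(3L)ED230 with 23 held none. The median log2 ratio of the members was -1.24 in XX, -1.26 for tra2 XX and -1.23 for XY, or 42.3%, 41.9% and 42.5% of the reference, beside -0.91, -0.89 and -0.90 for all deleted genes over 20 normalized reads. Of the members, 14 were under -1.1 in all 3 groups, 9 in XX and tra2 XX only, 15 in XX and XY only and 13 in tra2 XX and XY only. Most lay near the threshold: the mean log2 ratio over the groups was -1.5 or above in 39 members, between -2 and -1.5 in 5 and under -2 in 7.

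**Figure D1:**
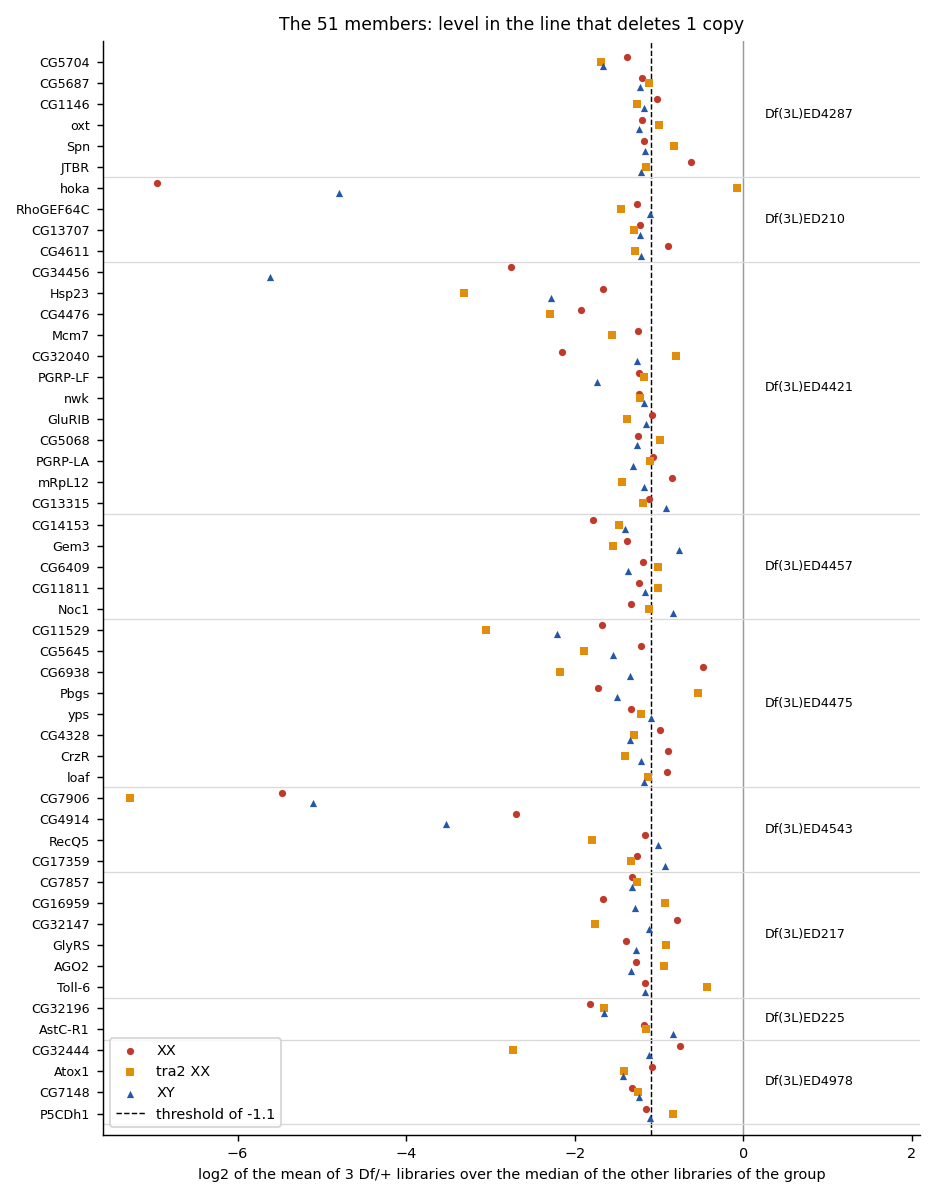
Log2 ratio of each of the 51 members, the mean of the 3 Df/+ libraries divided by the median of all others, in XX, tra2 XX and XY, by the deficiency that deletes the gene. Most points lie close to the threshold of -1.1, CG7906 lies at -5.10 or lower in all 3 groups, and hoka is far below the threshold in XX and XY and at -0.07 in tra2 XX.

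The rule was also read in genes that a line does not delete. Of 92249 pairs of an undeleted gene and a line, 28, or 0.0304%, were under -1.1 in 2 or more groups. The threshold lay 0.19 log2 units below the median of the deleted genes in XX, 0.21 for tra2 XX and 0.20 for XY. Of the undeleted pairs, 6391, or 6.93%, lay as far below their own median in 2 or more groups. This number differed by line, from 376 of 8390 in Df(3L)ED4978 to 890 of 8376 in Df(3L)ED4457 and 1166 of 8350 in Df(3L)ED4475. In these 3 lines 4 of 30, 5 of 42 and 8 of 72 deleted genes were members. Just inside the threshold were CG13315 at -1.11 in XX, -1.19 for tra2 XX and -0.92 for XY, PGRP-LA at -1.07 in XX, -1.11 for tra2 XX and -1.31 for XY and P5CDh1 at -1.16 in XX, -0.84 for tra2 XX and -1.11 for XY. Just outside it were CG1927 at -0.95 in XX, -1.09 for tra2 XX and -1.15 for XY, Duba at -1.07 in XX, -1.22 for tra2 XX and -1.09 for XY and laza at -1.18 in XX, -1.03 for tra2 XX and -1.09 for XY.

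CG7906, deleted by Df(3L)ED4543, was the lowest member. Its Df/+ libraries of XX held 0.571, 2.72 and 2.14 normalized reads, and the others 31.5 to 156 with a median of 80.4. In tra2 XX they held 0, 1.29 and 0, and the others 22.7 to 134 with a median of 66.7. In XY they held 1.07, 0.465 and 3.74, and the others 23.0 to 101 with a median of 60.4. All 9 Df/+ libraries were below every other library of their group. The Df/+ libraries of XX held 6 reads, 1.92% of the number the reference level would give (95% exact Poisson interval 0.704% to 4.18%), which covers counting error only. The single read of the tra2 XX libraries was 0.595%, with an interval of 0.0151% to 3.32%. The nearest genes in gene order over 20 normalized reads were closer to the reference, with log2 ratios for nuf of -0.92 in XX, -1.19 for tra2 XX and -0.70 for XY, and for fz, the Wnt receptor frizzled, of -0.84 in XX, -1.45 for tra2 XX and -0.64 for XY. The lowest means with both copies were 37.0 normalized reads in w1118 XX heads, 24.2 in w1118/w+ tra2 XX heads and 31.4 in w1118 XY heads, at log2 ratios of -1.12, -1.46 and -0.95, so that the first 2 were themselves under -1.1.

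hoka, which encodes a membrane protein of smooth septate junctions and is deleted by Df(3L)ED210, was low in XX and XY and not in tra2 XX. The normalized reads in XX were 0, 0 and 1.45 in its Df/+ libraries, and 0 to 227 with a median of 60.4 in the others. Those in tra2 XX were 66.7, 83.8 and 66.3 in the Df/+ libraries, and 16.8 to 220.1 with a median of 76 in the others. Those in XY were 2.18, 1.78 and 0 in the Df/+ libraries, and 0 to 234 with a median of 36.7 in the others. The level with 1 copy was 95.1% of the reference in tra2 XX, and the Df/+ values there lay amid the others. In XX the Df/+ libraries held 2 reads, 0.916% of the number the reference level would give (95% exact Poisson interval 0.111% to 3.31%). The neighbouring genes over 20 normalized reads were below the reference in all groups, with log2 ratios for CG13707, another member, of -1.22 in XX, -1.30 for tra2 XX and -1.23 for XY, and for Rh50 of -0.98 in XX, -0.73 for tra2 XX and -0.74 for XY.

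Lines that keep both copies of hoka were as low. In XX heads hoka had 0, 0 and 0 normalized reads in Df(3L)ED211/+, 0, 0 and 0 in Df(3L)ED217/+ and 1.90, 0 and 0 in Df(3L)ED230/+. Among XY heads it had 2.55, 0.518 and 0.577 in Df(3L)ED211/+, 0, 17.2 and 0 in Df(3L)ED217/+ and 3.25, 1.97 and 0 in Df(3L)ED230/+. In tra2 XX heads the means of these lines, in the same order, were 66.5, 77.0 and 102. In all, 7 of 32 other lines in XX, 3 of 31 for tra2 XX and 3 of 12 for XY were under -1.1 for hoka, so low hoka was not particular to the line that deletes it. Of the 5 midgut markers, 4 had a median of 0 in XX, and the sum of all 5 ranged from 19.9 to 537 normalized reads over the XX libraries. In XX heads the sum averaged 40.8 in Df(3L)ED210/+, 28.1 in Df(3L)ED211/+, 61.0 in Df(3L)ED217/+ and 46.0 in Df(3L)ED230/+. Among XY heads these lines averaged 82.8, 43.5, 68.0 and 51.8, in the same order, and 82.8 was the highest mean of any XY line. The part of these markers in the hoka values was not tested.

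**Figure D2:**
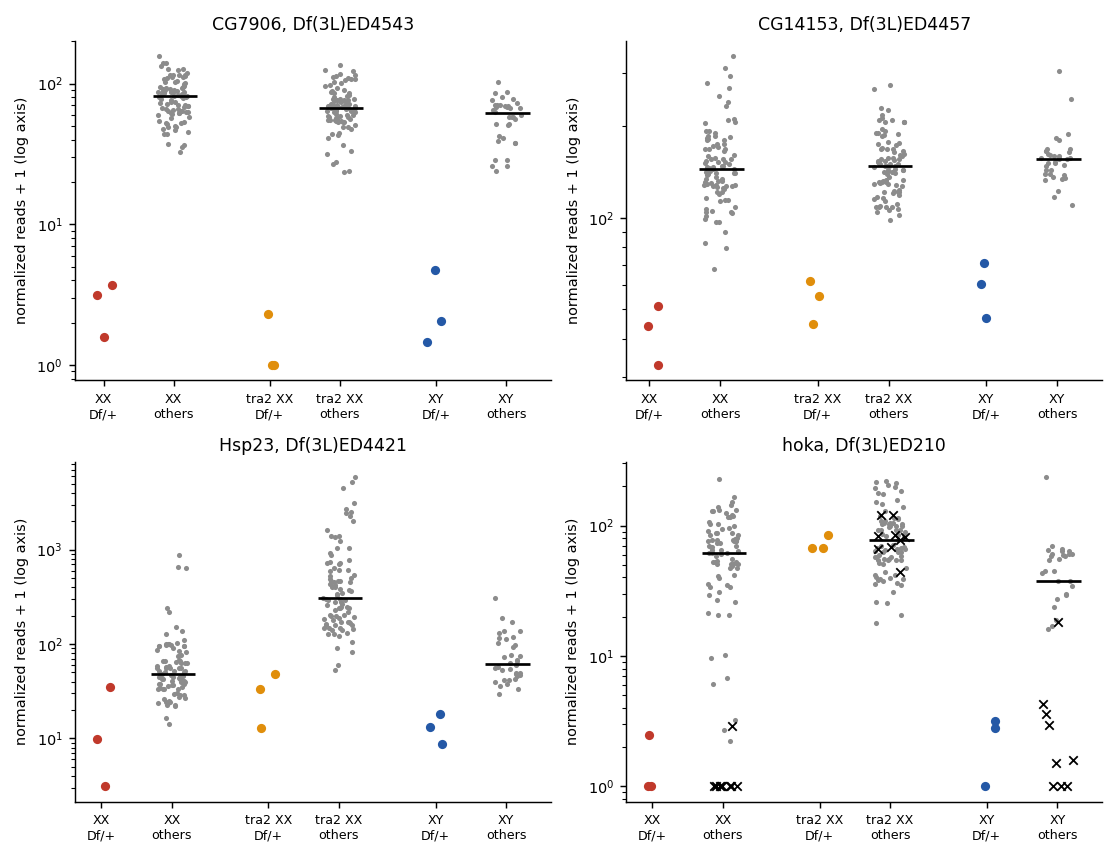
Normalized reads (log axis) of CG7906, CG14153, Hsp23 and hoka in each library of XX, tra2 XX and XY, with the 3 Df/+ libraries of the line that deletes the gene left of all others and a bar at the median of the others; crosses in the hoka panel mark Df(3L)ED211, ED217 and ED230. CG7906 and CG14153 have no other library as low as their Df/+ libraries, and hoka has other libraries as low in XX and XY.

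CG4914, deleted by Df(3L)ED4543, shared this feature. In XX its Df/+ libraries held 4.0, 1.36 and 4.99 normalized reads, and the others 1.45 to 63.5 with a median of 22.3. In XY they held 4.28, 1.40 and 1.25, and the others 2.07 to 69.4 with a median of 26.6. In tra2 XX the reference of 13.4 was under the cut-off. Df(3L)ED210, ED211, ED225, ED230 and ED4421, which keep both copies, were under -1.1 for CG4914 in both XX and XY, and Df(3L)ED211/+ XX heads averaged 2.18 normalized reads, beside 3.45 in Df(3L)ED4543/+ XX heads. Over all lines and strains that do not delete the gene, 4 of the 51 members were under -1.1 in 2 or more groups of the same line or strain, hoka, CG4914, CG34456 and AstC-R1, and 8 of the 328 other deleted genes were so.

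CG34456, deleted by Df(3L)ED4421, was low in strains with both copies. In XX its Df/+ libraries held 5.35, 7.41 and 3.39 normalized reads, and the others 0 to 163 with a median of 36.3. In XY they held 0.695, 0.493 and 1.45, and the others 0 to 164 with a median of 43.2. OreR heads averaged 0.314 normalized reads in XX and 1.03 in XY, and w1118 heads 3.59 in XX and 10.9 in XY, under -1.1 in both groups of both strains. Of its exon length 15.8% is shared with Klp67A, and the reads were not assigned by strand.

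Hsp23, also deleted by Df(3L)ED4421, varied widely among flies with both copies. Heads of XX held 8.91, 2.12 and 33.9 normalized reads with 1 copy, and 13.4 to 879 with a median of 47.4 in the other libraries. Heads of tra2 XX held 32.3, 11.9 and 47.4 with 1 copy, and 52.5 to 5815 with a median of 303 in the others. Heads of XY held 7.64, 17.2 and 12.4 with 1 copy, and 28.4 to 303 with a median of 60.3 in the others. Its Df/+ libraries lay below every other library in tra2 XX and XY, and 23 of the 94 other XX libraries were at or under the highest Df/+ value. Of 6 deleted heat shock protein genes over 20 normalized reads, Hsp23 was the only member. The others went different ways: Hsp26 had log2 ratios of -0.36 in XX, -3.40 for tra2 XX and -0.67 for XY, and Hsp27 of 1.39 in XX, -2.71 for tra2 XX and 1.56 for XY, so that in tra2 XX both were under -1.1 as Hsp23 was, and Hsp27 was above the reference in XX and XY.

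CG14153, deleted by Df(3L)ED4457, was apart from the other libraries in all 3 groups, as CG7906 was. Its Df/+ libraries of XX held 43.1, 31.7 and 50 normalized reads, and the others 66.6 to 339.6 with a median of 144. In tra2 XX they held 61.1, 43.6 and 54.3, and the others 97.4 to 273 with a median of 147. In XY they held 45.9, 59.6 and 69.8, and the others 109 to 303 with a median of 155. No other library was as low in any group, at log2 ratios of -1.79, -1.47 and -1.41 in XX, tra2 XX and XY.

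CG32196, deleted by Df(3L)ED225, had similar ratios at a lower level. The normalized reads in XX were 9.46, 11.9 and 8.07 in its Df/+ libraries, and 14.8 to 72.5 with a median of 34.5 in the others. Those in tra2 XX were 11, 7.50 and 15.7 in the Df/+ libraries, and 15.7 to 70.7 with a median of 35.9 in the others. Those in XY were 11.9, 14.5 and 6.31 in the Df/+ libraries, and 17.4 to 50.2 with a median of 34.2 in the others. The groups did not overlap in XX and XY, and in tra2 XX the number of other libraries at or under the highest Df/+ value was 1 of 93. CG5704, deleted by Df(3L)ED4287, was under -1.1 in every group too. Heads of XX held 29.1, 14.2 and 18.4 normalized reads with 1 copy, and 30.8 to 118 with a median of 53.5 in the other libraries. Heads of tra2 XX held 15.6, 15.4 and 32.7 with 1 copy, and 30.0 to 128 with a median of 68.3 in the others. Heads of XY held 19.3, 21.7 and 8.85 with 1 copy, and 20.4 to 68.9 with a median of 52.9 in the others. The number of other libraries at or under the highest Df/+ value was 0 of 94 in XX, 1 of 93 for tra2 XX and 1 of 36 for XY.

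The remaining members of lowest ratio were CG11529, CG5645, CG4476 and CG32444. CG11529 is deleted by Df(3L)ED4475, and its value of 0 in tra2 XX stands in the library of 667146 reads. Its Df/+ libraries of XX held 9.77, 8.64 and 7.16 normalized reads, and the others 7.93 to 111 with a median of 27.2. In tra2 XX they held 0, 6.29 and 12.0, and the others 3.15 to 103 with a median of 50.6. In XY they held 12.1, 12.6 and 5.83, and the others 14.5 to 94.0 with a median of 47.3. The number of other libraries at or under the highest Df/+ value was 3 of 94 in XX, 1 of 93 for tra2 XX and 0 of 36 for XY. CG5645, of the same line, had log2 ratios of -1.22 in XX, -1.89 for tra2 XX and -1.55 for XY, and its Df/+ libraries held 29.3, 37.2 and 16.3 normalized reads in XX, 14.2, 6.29 and 13.5 in tra2 XX and 18.1, 6.31 and 21.9 in XY. The medians of the other libraries were 64.2, 42.2 and 45.2. The 14.2 of tra2 XX and the 6.31 of XY were 1 read each, in the libraries of 667146 and 1381962 reads. All Df/+ reads together were 23.2% of the number the reference level would give in tra2 XX and 42.8% in XY.

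CG4476, deleted by Df(3L)ED4421, held 7.13, 7.41 and 5.65 normalized reads in the Df/+ libraries of XX, and 5.21 to 113 with a median of 25.6 in the others. In tra2 XX it held 10.8, 6.64 and 11.8, and 6.78 to 114 with a median of 47.6 in the others, and in XY the reference of 17.1 was under the cut-off. CG32444, deleted by Df(3L)ED4978, was lowest in tra2 XX. The normalized reads in XX were 183, 604 and 367 in its Df/+ libraries, and 165 to 1721 with a median of 649.9 in the others. Those in tra2 XX were 176, 301 and 134 in the Df/+ libraries, and 459 to 4226 with a median of 1356 in the others. Those in XY were 242, 247 and 368 in the Df/+ libraries, and 145 to 1733 with a median of 623 in the others. The level was 15.0% of the reference in tra2 XX, where all other libraries were higher, and 59.2% in XX and 45.9% in XY, where the Df/+ libraries lay within the range of the others.

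Counting every annotated gene, members lay next to each other in gene order in 2 places, both in Df(3L)ED4421; hoka and CG13707 are neighbours only among genes over 20 normalized reads. GluRIB and PGRP-LA are one such pair. For GluRIB, heads of XX held 121, 130.2 and 97.2 normalized reads with 1 copy, and 69.3 to 433 with a median of 245 in the other libraries. Heads of tra2 XX held 58.5, 73.0 and 59.2 with 1 copy, and 57.0 to 292 with a median of 165 in the others. Heads of XY held 137, 141 and 147 with 1 copy, and 31.6 to 430.3 with a median of 316 in the others. The number of other libraries at or under the highest Df/+ value was 18 of 94 in XX, 2 of 93 for tra2 XX and 1 of 36 for XY. The PGRP-LA Df/+ libraries of XX held 120.3, 85.7 and 133 normalized reads, and the others 138 to 378 with a median of 237. In tra2 XX they held 165, 102 and 150.1, and the others 182 to 515 with a median of 299. In XY they held 113, 113 and 124, and the others 234 to 537 with a median of 289. PGRP-LA lay below every other library in all 3 groups.

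PGRP-LF, an inhibitor of Imd immune signalling, and CG32040 are the other pair. PGRP-LF had log2 ratios of -1.24 in XX, -1.18 for tra2 XX and -1.74 for XY, from Df/+ libraries of 19.6, 18.0 and 6.78 normalized reads in XX, 27.7, 23.9 and 15.8 in tra2 XX and 7.64, 3.94 and 15.3 in XY. The medians of the others were 35.0, 51 and 29.8. Of its exon length 44.4% is shared with UGP, so reads of these genes could not be told apart there. CG32040 had log2 ratios of -2.15 in XX, -0.80 for tra2 XX and -1.26 for XY, from Df/+ libraries of 2.67, 7.41 and 4.52 normalized reads in XX, 15.4, 10.6 and 11.8 in tra2 XX and 14.6, 8.37 and 10.9 in XY, with medians of 21.6, 22.0 and 27.1 in the others.

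Members of higher level are shown by nwk, yps and Toll-6, chosen after their values were seen. The normalized reads of nwk in XX were 797, 954 and 656 in its Df/+ libraries, and 1089 to 3334 with a median of 1889 in the others. Those in tra2 XX were 859, 835 and 707 in the Df/+ libraries, and 1234 to 3135 with a median of 1874 in the others. Those in XY were 1194, 1166 and 1207 in the Df/+ libraries, and 884 to 3943 with a median of 2697 in the others. The number of other libraries at or under the highest Df/+ value was 0 of 94 in XX, 0 of 93 for tra2 XX and 1 of 36 for XY. yps, a Y-box RNA-binding protein, had log2 ratios of -1.33 in XX, -1.21 for tra2 XX and -1.09 for XY. Its Df/+ libraries of tra2 XX held 427, 948 and 967 normalized reads, and the others had a median of 1811. The value of 427 came from 30 reads of the library of 667146 reads. The reads of these Df/+ libraries together were 51.5% of the number the reference level would give. Toll-6 was at 44.5% of the reference in XX, 74.3% for tra2 XX and 44.4% for XY, with 243, 184 and 209 normalized reads in the Df/+ libraries of tra2 XX and a median of 285 in the others.

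Of the 47 members over 20 normalized reads in all 3 groups, 13 had every other library above their 3 Df/+ libraries in each group. Among 369 deleted genes, members included, 55 did, or 14.9%. The rule chose members by low values in these same Df/+ libraries, so this contrast is no test. The members were lower in level than the other deleted genes, with a mean reference under 50 normalized reads in 14 of 51 members, or 27.5%, and in 40 of 328 others, or 12.2%. Their median exon length was 2097 bp, beside 2358 bp in the others, and their median exon number 3, beside 4. The median coefficient of variation among the libraries that keep both copies was 28.1% for members and 24.4% for the other deleted genes in XX, 24.2% and 20.5% in tra2 XX, and 21.8% and 18.9% in XY. At least 1 other line was under -1.1 for 12 of 51 members in XX, 5 of 49 for tra2 XX and 6 of 49 for XY, or 23.5%, 10.2% and 12.2%, beside 11%, 3.70% and 3.66% of the other deleted genes. Level and spread bear on which genes pass a threshold, so these are descriptions.

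Few members fell into the gene lists. They were 1 of 4 mitochondrial ribosomal protein genes over 20 normalized reads (mRpL12), 1 of 5 tRNA synthetase genes (GlyRS) and 1 of 6 heat shock protein genes (Hsp23). Neither the 3 genes of oxidative phosphorylation nor the 2 of the proteasome held a member. Genes named by a CG number held 26 among 130, or 20%, beside 13.5% of all deleted genes.

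Whether a gene low in 2 groups was also low in the third was read from the group that had not chosen it. The XX and XY flies of a line were siblings, so the groups share the line's genome. Of 27 members under -1.1 in both tra2 XX and XY, the median in XX was -1.2, and 14, or 51.9%, were under -1.1, where 18.0% of all deleted genes were. Of 29 members under -1.1 in both XX and XY, 27 were over 20 normalized reads in tra2 XX, with a median of -1.12, and 14, or 51.9%, were under -1.1, where 25.2% of all deleted genes were. Of 23 members under -1.1 in both XX and tra2 XX, 21 were over 20 normalized reads in XY, with a median of -1.23, and 14, or 66.7%, were under -1.1, where 20.2% of all deleted genes were. The same 14 members stand in each of these counts.

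**Figure D3:**
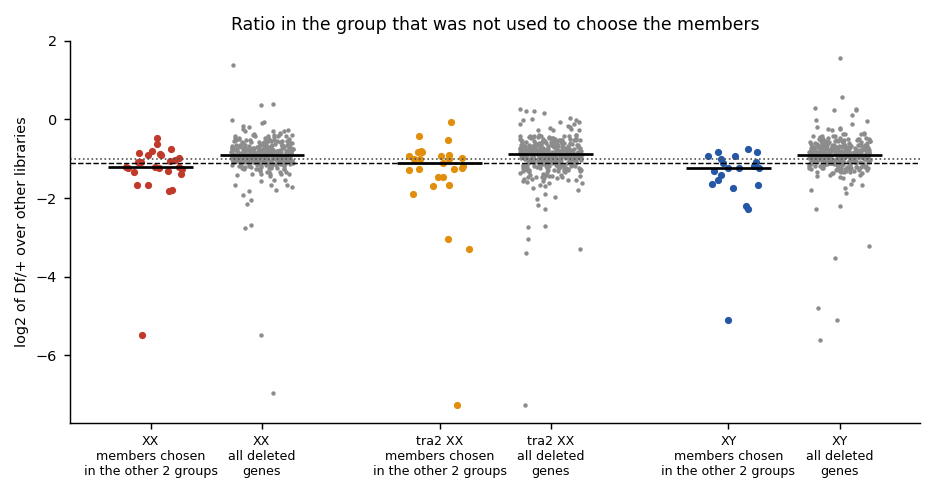
Log2 ratio in the group that did not choose the members, for the members left of all deleted genes over 20 normalized reads, in XX, tra2 XX and XY; bars are medians, the dotted line is 50% of the reference and the dashed line the threshold of -1.1. The members' medians of -1.2, -1.12 and -1.23 lie below those of all deleted genes, -0.91, -0.89 and -0.90.

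In that group each member was tested against 50% of the reference on read counts, with edgeR's quasi-likelihood test. The Benjamini-Hochberg adjustment was over all genes tested in the fit of that line and group. The spread among the other lines and strains counted as error, with no term for line. CG7906 was the 1 member called below 50% among 27 tested in XX, among 29 in tra2 XX and among 23 in XY, where 0.412% of 486, 0.466% of 429 and 0.426% of 470 deleted genes were called. Relative to 50% of the reference, its log2 level was -4.60 ± 0.53 in XX (SE, edgeR adjusted p = 6.67e-10, 2.39e-10 to 2.57e-05 over the alternatives), -6.18 ± 0.81 in tra2 XX (adjusted p = 8.62e-08, 4.43e-08 to 4.47e-04) and -4.04 ± 0.56 in XY (adjusted p = 6.74e-05, 2.72e-08 to 0.0514). In XY the call was lost against the 6 libraries without a deficiency alone, at -3.36 ± 0.66 and an edgeR adjusted p of 0.0514. At an unadjusted p under 0.05, 3 of 27 members were below 50% in XX, 9 of 29 for tra2 XX and 10 of 23 for XY, or 11.1%, 31.0% and 43.5%, beside 4.73%, 6.29% and 5.96% of the deleted genes.

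CG14153 was below 50% at an unadjusted p under 0.05 in each group, at -0.88 ± 0.29, -0.51 ± 0.21 and -0.39 ± 0.16 on the log2 scale, with edgeR adjusted p of 0.236, 0.0722 and 0.783, and DESeq2 called it in tra2 XX. Its tra2 XX values come from the Df(3L)ED4457/+ libraries that stood apart, with 2037 of 9556 genes called in edgeR. An adjusted p depends on how many genes a fit calls, so these values cannot be compared across lines or groups. CG32196 had -0.90 ± 0.33, -0.67 ± 0.30 and -0.61 ± 0.25, with edgeR adjusted p of 1.000, 0.988 and 0.990. Above 50% at an unadjusted p under 0.05 were 0 members in XX, 0 in XY and 2 in tra2 XX, Toll-6 at 0.58 ± 0.24 and P5CDh1 at 0.15 ± 0.07, with edgeR adjusted p of 0.696 and 0.871.

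Flies without a deficiency of 3L or X show how the members vary with 2 copies, a contrast the rule did not use. Between w1118 XX and w1118 XY heads, 0 of 50 members tested were called in edgeR, where 3.22% of 9861 genes were higher and 3.26% lower. At an unadjusted p under 0.05, 3 of the 50 were higher and 11 lower, 28.0% together, beside 23.5% of all genes, and DESeq2 called 1 higher and 3 lower, beside 539 and 549 of all 9861 genes. P5CDh1 had the smallest p, with 4251, 4222 and 4289 normalized counts in XX and 5567, 5417 and 5684 in XY, a log2 fold change of -0.39 ± 0.11 (edgeR adjusted p = 0.0602, 8.99e-08 to 0.237 over the alternatives). In the XX and XY libraries of the 3L lines, with the line as a block, 11 of 51 members were called higher and 19 lower, where 27.0% of 10407 genes were higher and 29.2% lower.

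Between w1118 tra2 XX and w1118 XX heads, 8 of 50 members were called higher and 2 lower, where 9.96% of genes were higher and 5.69% lower. The tra2 XX flies carried Df(2R)trix, so loss of tra2 and 1 copy of other genes in that deficiency cannot be told apart here. CG32444 had 3918, 4183 and 4826 normalized counts in tra2 XX and 448, 796 and 505 in XX, a log2 fold change of 2.89 ± 0.30 (edgeR adjusted p = 8.47e-05). Hsp23 had 2395, 816 and 1259.9 in tra2 XX and 234, 219 and 260.3 in XX, at 2.65 ± 0.44 (adjusted p = 0.00224 in edgeR). CG7148 rose by 0.48 ± 0.09 and CG11529 by 1.21 ± 0.26 on the log2 scale. In these 4 genes all tra2 XX libraries were above all XX libraries. AstC-R1 had 128, 139.9 and 119 in tra2 XX and 475, 499 and 477 in XX, at -1.91 ± 0.27 (adjusted p = 6.43e-04 in edgeR).

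CG4914 was the other member called lower, with 12.9, 38.4 and 36.6 normalized counts in tra2 XX and 63.9, 58.6 and 66.1 in XX, at -1.15 ± 0.30 (edgeR adjusted p = 0.0240, 0.00235 to 0.0669 over the alternatives). Without w1118 XX replicate 1, 2 or 3 its edgeR adjusted p was 0.0669, 0.0523 or 0.0616, and in the tra2 XX and XX libraries of the 3L lines its log2 fold change turned to 0.57. In those lines, with the line as a block, 21 of 51 members were called higher and 14 lower, where 35.8% of 9909 genes were higher and 35.2% lower, an alternative added after seeing the data. The count of members called higher fell to between 3 and 5 without w1118 XX replicate 1 or 3, w1118 tra2 XX replicate 1 or 3, or w1118 tra2 XY replicate 2 or 3, which share the fit.

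Between OreR and w1118 heads of both XX and XY, 4 of 50 members were called higher and 7 lower, where 11.5% of 9865 genes were higher and 9.16% lower. These comparisons share the w1118 libraries with those above. CG32444 had 1670.2, 1387 and 1332 normalized counts in OreR XX and 458, 816 and 516 in w1118 XX, and 2469, 1546 and 3069 in OreR XY and 665, 576 and 284 in w1118 XY, a log2 fold change of 1.75 ± 0.26 (edgeR adjusted p = 3.58e-04). AGO2 was higher by 0.43 ± 0.09, CG32147 by 0.52 ± 0.13 and CG5645 by 0.44 ± 0.13. Atox1 had 765, 695 and 734 in OreR XX and 1022, 1207 and 1041 in w1118 XX, and 862, 828 and 820 in OreR XY and 1313, 1378 and 1218 in w1118 XY, at -0.61 ± 0.07 (adjusted p = 3.14e-05 in edgeR). AstC-R1 was lower, at -1.46 ± 0.22, as were CrzR at -0.34 ± 0.06 and CG5704 at -0.73 ± 0.17, and the other 3 called lower were CG4914, hoka and CG32196. The strain effect differed between XX and XY in 0 of 50 members (edgeR adjusted p under 0.05), where 1 of 9865 genes was called, with 4 members larger and 2 smaller in XX at an unadjusted p under 0.05, 12.0% together, beside 7.76% of all genes; DESeq2 was not run on this difference.

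**Figure D4:**
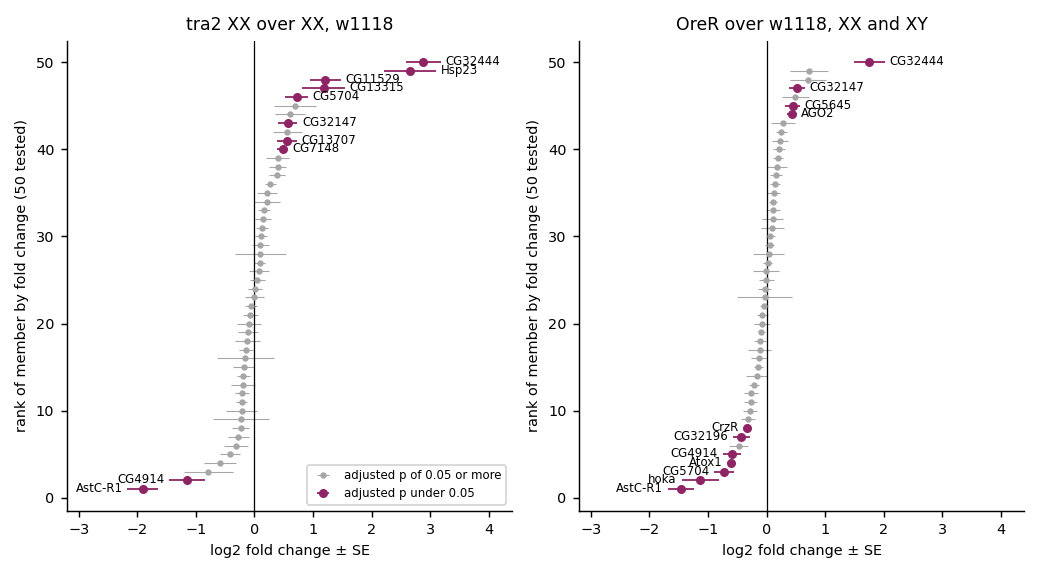
Log2 fold change ± SE of the 50 tested members, ranked, in w1118 tra2 XX over w1118 XX heads and in OreR over w1118 heads, with members at an edgeR adjusted p under 0.05 named. In the first 8 members are higher and 2 lower, and in the second 4 are higher and 7 lower.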

How the data were processed

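Per the labels and the study's methods, the authors made poly-A+ libraries without strand marks, sequenced 76 nt single reads (CASAVA 1.8.2), mapped unique reads with TopHat 2.0.10 to FlyBase release 5.57 and counted them per gene with HTSeq 0.5.4p1; these deposited read counts were used for all tests. The ratios used the deposited normalized signal, read counts that the authors divided by DESeq2 1.6.3 size factors, and the deposited FPKM values, which the authors made with Cufflinks 2.1.1, served as an alternative. Lines that name no gene took 7.12% of reads and were left out, and 0 columns were unmapped. Gene positions came from BDGP6, another build, and served only to assign genes to deficiencies and order, so none is printed.

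The members and lists were chosen with earlier results of these data known. Tests used edgeR 4.0.16 (quasi-likelihood, TMM scaling, filterByExpr, R 4.3.3), with DESeq2 1.42.0 as an alternative. The test of below 50% set an offset of 0.5 for deleted genes in the Df/+ libraries. Adjusted p-values are Benjamini-Hochberg over all genes of a fit, called under 0.05, and the scripts were tested on simulated data. Replicates are libraries the labels number separately. In the comparisons of flies without a deficiency, p-values measure the spread between them. In the test of below 50%, the spread among the other lines and strains also counts as error. That test has no term for line, so libraries of the same line count as independent. Genes named were the 12 members of lowest mean ratio, the 3 on each side of the threshold, up to 4 called per direction in each comparison without a deficiency, up to 4 called below 50% per group, and members adjacent in gene order. Alternatives changed the cut-off, threshold, scaling, reference, filter, tool, samples in the fit, replicate block and single replicates. Tables used Python 3.11.15, pandas 2.3.3, numpy 2.4.6 and scipy 1.17.1.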

Additional observations from a re-analysis of the deposited data

How the results depend on the processing

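The list of members depends on its limits. There were 110 members at a threshold of -1.0, 113 with deposited FPKM over 1 (46 of the 51 among them) and 77 against the libraries without a 3L deficiency (38 of the 51 among them). Leaving out 1 replicate of each line gave 58 to 78 members, with 37 to 46 of the 51 among them. Of the 51, 14 were members under every alternative run: Atox1, CG13707, CG14153, CG4611, CG5687, CG5704, CG7148, CG7857, CG7906, GlyRS, Hsp23, Pbgs, RhoGEF64C and nwk.

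Members called below 50% numbered 2 in tra2 XX and 2 in XY with DESeq2 (CG14153 and CG7906; CG11529 and CG7906), and 2 in tra2 XX (CG7906 and CG4914) and 3 in XY (CG5687, Hsp23 and CG4476) against libraries without a 3L deficiency. Leaving out a replicate gave 1 to 1 in each group. For XX over XY, DESeq2 called 1 higher and 3 lower, the 6 libraries alone gave 1 lower (2.91% of all genes), the 3L lines 11 higher and 19 lower (27.0% and 29.2% of all genes), and leaving out a library 0 to 1 higher and 0 to 3 lower. For tra2 XX over XX, the 6 libraries alone gave 13 higher and 4 lower (15.1% and 14.7% of all genes), the 3L lines 21 higher and 14 lower (35.8% and 35.2% of all genes), with CG4914 at 0.57, and leaving out a library 3 to 10 higher and 1 to 3 lower. For OreR over w1118, the XX libraries alone gave 7 higher and 4 lower (9.54% and 6.75% of all genes), the XY libraries alone 1 higher and 3 lower (3.17% and 2.97% of all genes), and leaving out a library 3 to 5 higher and 5 to 9 lower. The causes were not tested.

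The replicate numbers did not pair the samples, since the correlations of same-numbered deviations ranged from -0.351 to 0.384. With the replicate block, 1 member was called below 50% in each group, 0 higher and 0 lower for XX over XY, 7 and 2 for tra2 XX over XX, and 4 and 6 for OreR over w1118. Depth limits the ratios of members with few reads, such as CG7906 with 1 read in the Df/+ libraries of tra2 XX.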
